A study of Homo sapiens with 6 samples.

Results

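The transcripts described here are those of ESM1 and 9 genes of angiogenesis and hypoxia signalling, namely VEGFA, VEGFB, VEGFC, ANGPTL4, THBS1, NRP1, NRP2, HIF1A and EPAS1, in NEK2-silenced breast cancer cells. They were selected by symbol, 10 of the 74852 genes listed, and each matched a gene with enough reads to be among the 18717 tested. ESM1 was chosen for its fall in these same libraries, so its values are a description with no test. The other members were put beside it with earlier results of these data known, so that their p-values are no independent evidence on the choice. MDA-MB-231 is a mesenchymal cell line from a human triple-negative breast cancer. It was transfected 2 times with 4 pooled siRNAs, directed against the mitotic kinase NEK2 (si-NEK2) or non-targeting (si-CTRL), and the records name no other treatment. According to the sample records they were collected 24 h after the second transfection, while the methods give a different time. PolyA-enriched RNA of 3 samples per group was sequenced, and the comparison asked which transcripts depend on NEK2. Each group stands for 1 cell line and 1 siRNA pool. The samples are described as a triplicate, and whether they came from separate cultures is not stated, so p-values measure the spread between these samples. Whether both groups were prepared together is not stated either.

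ESM1, also called endocan, is a dermatan sulfate proteoglycan secreted by activated endothelium and by some tumor cells, and it is used as a marker of the tip cells of growing vessels. VEGF ligands drive vessel growth through receptor tyrosine kinases, with the neuropilins as co-receptors, and thrombospondin 1 opposes this growth. HIF-1α and HIF-2α, encoded by HIF1A and EPAS1, are kept low by oxygen-dependent degradation and switch on VEGFA and ANGPTL4 when oxygen is low, so that much of their control lies at the protein, which was not measured here.

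In brief, ESM1 fell to 7.22% of its si-CTRL level, and ANGPTL4 and VEGFA fell to 34.9% and 50.8%. HIF1A rose 1.52-fold. VEGFB, VEGFC, THBS1 and NRP2 differed by less than 1.5-fold, and the differences of NRP1 and EPAS1 did not pass the test. Regulated genes are those with p of 0.05 or less and a change of 1.5-fold or more in limma. By this rule 3 of the 10 members were lower and 1 was higher, where 14.3% of all tested genes were lower and 8.23% were higher. ESM1 is among the 3 because it was chosen for its fall.

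The libraries held between 52625492 and 87454509 reads assigned to genes. Values are normalized counts, that is reads divided by a size factor of the library. NEK2 itself had 3702, 3323 and 3290 normalized counts in si-CTRL replicates 1, 2 and 3, and 284, 362 and 388 in si-NEK2 replicates 1, 2 and 3. Reads of si-CTRL replicate 1 differed most from those of its group, with a chi-square per degree of freedom of 75.8 against replicate 2 and 80.2 against replicate 3. The next pair of the same group, si-NEK2 replicates 1 and 3, had 26.6. The library si-CTRL replicate 1 had the highest si-CTRL value of 7 of the 10 members, against 40.6% of all tested genes. Values without it are given beside the members and named genes whose call it changes. Of the 5 markers of MDA-MB-231 cells all were tested, CAV1 was higher and CD44 and SNAI2 were lower in si-NEK2 cells. Without si-CTRL replicate 1, 0 of the 5 were called lower, with log2 fold changes of -0.58 for CD44 and -0.51 for SNAI2, and CAV1 was under 1.5-fold with equal total and with quantile scaling. Of 6 genes that these cells lack, 5, among them CDH1, ESR1 and PGR, were below the filter of 10 normalized counts.

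The promoter of ESM1 is shown with those of ANGPTL4 and HIF1A because these genes had the largest fall among the tested members and the only rise past 1.5-fold. They are taken from RefSeq (GRCh38.p14), which held a promoter for 8 of the 10 members and none was matched for VEGFA and NRP1. Each runs from 250 bases before to 50 bases after the start, in the direction of transcription, and capitals mark ACGTG or GCGTG on either strand, the cores of the hypoxia response element. The ESM1 window is chr5:54985544-54985843 on the minus strand, that of ANGPTL4 is chr19:8363905-8364204 on the plus strand and that of HIF1A is chr14:61695263-61695562 on the plus strand.
ESM1: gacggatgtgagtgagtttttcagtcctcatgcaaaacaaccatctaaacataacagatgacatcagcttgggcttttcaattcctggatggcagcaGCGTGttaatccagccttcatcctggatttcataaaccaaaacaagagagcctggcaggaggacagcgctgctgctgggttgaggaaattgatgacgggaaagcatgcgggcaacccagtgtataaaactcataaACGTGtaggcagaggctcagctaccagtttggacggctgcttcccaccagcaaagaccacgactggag
ANGPTL4: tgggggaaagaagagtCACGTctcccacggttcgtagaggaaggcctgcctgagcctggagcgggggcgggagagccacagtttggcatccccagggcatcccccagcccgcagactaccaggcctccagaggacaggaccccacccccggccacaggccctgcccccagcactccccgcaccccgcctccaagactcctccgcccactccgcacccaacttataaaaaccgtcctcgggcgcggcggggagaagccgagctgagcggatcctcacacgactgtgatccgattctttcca
HIF1A: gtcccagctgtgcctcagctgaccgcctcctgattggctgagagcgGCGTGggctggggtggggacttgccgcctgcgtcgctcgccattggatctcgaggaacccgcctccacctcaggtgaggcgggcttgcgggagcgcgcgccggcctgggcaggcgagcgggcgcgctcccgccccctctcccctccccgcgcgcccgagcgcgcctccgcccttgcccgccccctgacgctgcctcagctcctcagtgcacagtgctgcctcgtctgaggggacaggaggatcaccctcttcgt

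The ESM1 window held 1 ACGTG, which begins 18 bases before the start, and 1 GCGTG, which begins 153 bases before it. ANGPTL4 held 1 ACGTG on the opposite strand, 234 bases before the start, and HIF1A held 1 GCGTG, 204 bases before it. Of the 9 windows of the 8 matched members, 2 for HIF1A, 7 held at least 1 core, against 48.4% of the 35116 promoters of the table. NRP2 and the second window of HIF1A held none. ACGTG was found in 2 of the 9 and in 21.41% of all promoters, and GCGTG in 6 of the 9 and in 36.54% of all. The AP-1 letters TGANTCA were in 0 of the 9 windows and in 7.71% of all promoters. An NF-kB pattern, GGG and TTCC set 3 bases apart, was in 0 of the 9 and in 6.52% of all, and its stricter form, with TTTCC 2 bases from GGG, in 0 of the 9 and in 1.91% of all. The SP1 letters GGGCGG were in 7 of the 9 and in 44.95% of all promoters. ESM1 was the member with none of the SP1 letters in its only window, and its window was 49.3% GC, where the median of all promoters was 58.7% and the other windows, apart from the second one of HIF1A at 31.7%, ranged from 66.3% to 84.7%. A match is a stretch of letters and not a binding site.

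ESM1 (GSHG0024787) lies on chromosome 5 from 54273716 to 54281421 in the hg19 coordinates of the file. Its normalized counts were 19467, 17217 and 23824 in si-CTRL replicates 1, 2 and 3, and 1359, 1460 and 1548 in si-NEK2 replicates 1, 2 and 3. Every si-NEK2 library was far below every si-CTRL library, and the si-NEK2 values lay close together. The mean went from 20170 ± 3359 (SD, n = 3) to 1456 ± 94.5 (SD, n = 3), a 13.9-fold decrease with a log2 fold change of -3.78 (standard error, SE, 0.11). By size of fall it ranked 12 among the 18717 tested genes. The value ranged from -3.91 to -3.65 over 16 other ways of analysis. With reads divided by exon length, ESM1 went from the second most abundant of the 10 members in si-CTRL cells to the eighth in si-NEK2 cells.

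**Figure D1:**
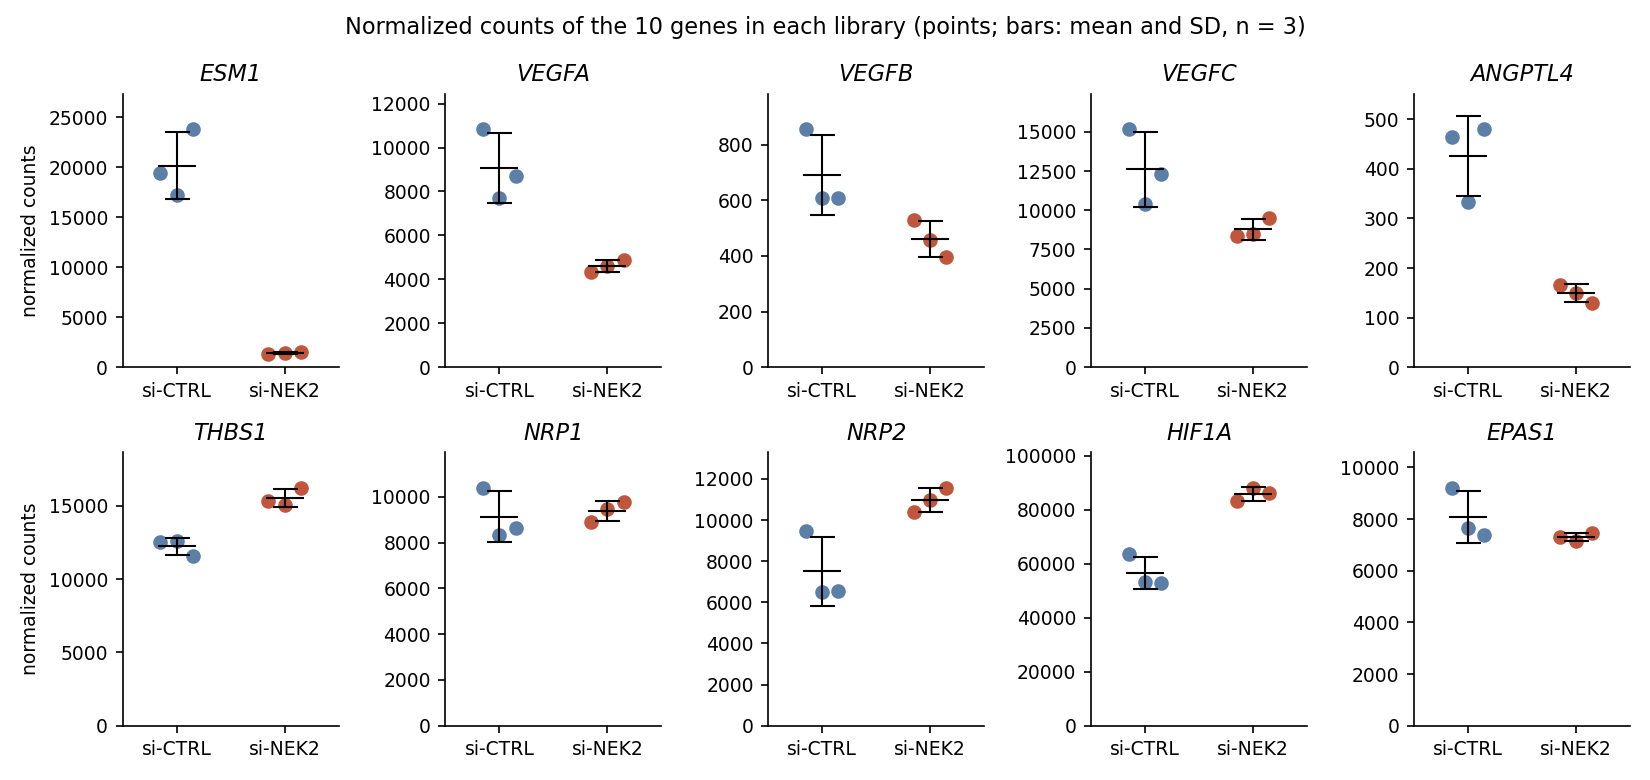
Normalized counts (linear axes from 0) of each of the 10 genes in the 3 si-CTRL libraries (blue) and the 3 si-NEK2 libraries (red), with mean and SD. ESM1, VEGFA, VEGFB, VEGFC and ANGPTL4 were lower in all si-NEK2 libraries, THBS1, NRP2 and HIF1A were higher in all of them, and the groups overlapped for NRP1 and EPAS1.

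Of the VEGF ligands, VEGFA is the main growth factor of vascular endothelium, VEGFC acts above all on lymphatic vessels, and VEGFB is linked to survival of vessels and to metabolism. VEGFA (GSHG0025760, chromosome 6 from 43737946 to 43754221) had 10834, 7691 and 8705 normalized counts in si-CTRL replicates 1, 2 and 3, and 4333, 4614 and 4893 in si-NEK2 replicates 1, 2 and 3. The lowest si-CTRL library was well above the highest si-NEK2 library. The mean dropped from 9077 ± 1604 (SD, n = 3) to 4614 ± 280 (SD, n = 3), with a log2 fold change of -0.96 (SE 0.12, adjusted p = 0.000314 over all tested genes in limma with Benjamini-Hochberg adjustment). Without si-CTRL replicate 1, the highest library, it was -0.83.

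VEGFC (GSHG0023666, chromosome 4 from 177604685 to 177713899) had 15165, 10393 and 12283 normalized counts in si-CTRL cells, and 8332, 8491 and 9535 in si-NEK2 cells. The groups did not overlap, but si-CTRL replicate 2 was close to si-NEK2 replicate 3. The log2 fold change was -0.51 (SE 0.13, adjusted p = 0.0113 in limma), under the 1.5-fold threshold. It passed this threshold with equal total scaling (-0.64), with quantile scaling (-0.64) and without si-CTRL replicate 2 (-0.64), and was -0.37 without si-CTRL replicate 1.

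VEGFB (GSHG0004952, chromosome 11 from 64002056 to 64006735) had 856, 607 and 610 normalized counts in si-CTRL cells, and 529, 457 and 398 in si-NEK2 cells. All si-NEK2 libraries were lower, and si-CTRL replicate 1 alone set much of the distance. The log2 fold change of -0.57 (SE 0.16, adjusted p = 0.0179 in limma) was just under the 1.5-fold threshold. It was past it under 7 of 16 alternatives, and -0.41 without si-CTRL replicate 1.

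Per kilobase of exon, VEGFC was the most abundant of the 3 ligands in both groups. VEGFA made up 26.5%, 27.2% and 26.5% of the summed level per kilobase of the 3 ligands in si-CTRL replicates 1, 2 and 3, and 20.6%, 21.6% and 20.9% in si-NEK2 replicates 1, 2 and 3. This share varied by far less than the counts, also in si-CTRL replicate 1, where all 3 ligands were high. The mean share of VEGFA went from 26.7% ± 0.361 to 21.1% ± 0.490 and that of VEGFC from 67.7% ± 0.694 to 73.2% ± 1.11 (SD, n = 3), without overlap between groups. The share of VEGFB was 5.55% ± 0.413 and 5.79% ± 1.12, with overlap.

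The neuropilins NRP1 and NRP2 are co-receptors for VEGF ligands and for class 3 semaphorins, NRP1 chiefly for VEGFA and NRP2 for VEGFC. NRP1 (GSHG0003989, chromosome 10 from 33466420 to 33624007) had 10405, 8336 and 8662 normalized counts in si-CTRL cells, and 8899, 9459 and 9770 in si-NEK2 cells. The groups overlapped, and the highest value was that of si-CTRL replicate 1. The log2 fold change was 0.04 (SE 0.09, adjusted p = 0.73 in limma), and 0.14 without si-CTRL replicate 1 (adjusted p = 0.0498).

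NRP2 (GSHG0017131, chromosome 2 from 206546562 to 206662856) had 9446, 6525 and 6557 normalized counts in si-CTRL cells, and 10368, 10983 and 11574 in si-NEK2 cells. All si-NEK2 libraries were higher, and si-CTRL replicate 1 was nearest to them. The log2 fold change was 0.57 (SE 0.14, adjusted p = 0.00902 in limma), just under 1.5-fold. Without si-CTRL replicate 1 it was 0.75 (adjusted p = 7.5e-06) and past that threshold, as it was without si-NEK2 replicate 1 (0.61). A row without a symbol that overlaps NRP2 (GSHG0139135) had 24.2% as many normalized counts as NRP2 in si-CTRL cells, and it rose with a log2 fold change of 0.71 (SE 0.07, adjusted p = 7.53e-05 in limma). How reads were divided between the 2 is not known.

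Set against each other per kilobase, NRP2 was 0.956, 0.824 and 0.797 times NRP1 in si-CTRL replicates 1, 2 and 3, and 1.23, 1.22 and 1.25 times NRP1 in si-NEK2 replicates 1, 2 and 3. By these counts NRP1 was the higher in all 3 si-CTRL libraries and NRP2 the higher in all 3 si-NEK2 libraries. The row without a symbol that overlaps NRP2 was not counted with it. That row had 1775, 1824 and 1847 normalized counts in si-CTRL replicates 1, 2 and 3. If these reads belong to NRP2, the order in si-CTRL cells could differ, so a change of order is uncertain.

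ANGPTL4 is a secreted inhibitor of lipoprotein lipase that is induced by hypoxia, by PPAR receptors and by fasting, and it acts on vessel permeability. ANGPTL4 (GSHG0014543, chromosome 19 from 8429011 to 8441581) had 465, 332 and 480 normalized counts in si-CTRL cells, and 166, 150 and 130 in si-NEK2 cells. Even the lowest si-CTRL library held clearly more than any si-NEK2 library. The mean dropped from 426 ± 81.4 (SD, n = 3) to 149 ± 18.01 (SD, n = 3), with a log2 fold change of -1.50 (SE 0.17, adjusted p = 0.000199 in limma). It was the least abundant member per kilobase in both groups. The antisense gene RAB11B-AS1, which overlaps it, had 34.3% as many normalized counts in si-CTRL cells, and its log2 fold change of -0.31 (SE 0.17, adjusted p = 0.159) did not pass the test. Whether strand was used in counting is not stated, and reads may be shared between them.

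THBS1 encodes thrombospondin 1, a matrix glycoprotein that inhibits angiogenesis and activates latent TGF-β. THBS1 (GSHG0009762, chromosome 15 from 39873279 to 39891117) had 12535, 12634 and 11552 normalized counts in si-CTRL cells, and 15326, 15049 and 16244 in si-NEK2 cells. The libraries of each group lay close together, and si-CTRL replicate 1 did not stand apart. The log2 fold change was 0.34 (SE 0.07, adjusted p = 0.00294 in limma), so that the difference was small but larger than the spread, and it stayed under 1.5-fold in all 16 alternatives. The ratio of THBS1 to VEGFA reads was 1.16, 1.64 and 1.33 in si-CTRL replicates 1, 2 and 3 and 3.54, 3.26 and 3.32 in si-NEK2 replicates 1, 2 and 3.

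HIF1A (GSHG0008896, chromosome 14 from 62162119 to 62214977) was the most abundant member per kilobase in both groups. It had 63442, 53381 and 52917 normalized counts in si-CTRL cells, and 83178, 88189 and 86091 in si-NEK2 cells. No si-CTRL library came near the si-NEK2 libraries. The mean rose from 56580 ± 5947 (SD, n = 3) to 85819 ± 2517 (SD, n = 3), with a log2 fold change of 0.61 (SE 0.08, adjusted p = 0.000522 in limma). The rise stood at the edge of the 1.5-fold threshold and was below it under 5 of 16 alternatives, at 0.54 with upper quartile scaling, 0.48 with equal total scaling, 0.36 with quantile scaling, 0.57 without si-CTRL replicate 2 and 0.56 without si-CTRL replicate 3. Its antisense transcript HIF1A-AS1 had 54.4 and 85.4 normalized counts on average, 0.0962% of HIF1A in si-CTRL cells, and its log2 fold change was 0.65 (SE 0.19, adjusted p = 0.0248). The other 7 tested rows that overlap a member, none with a symbol, were not regulated, with log2 fold changes from -0.77 to 0.28.

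EPAS1 (GSHG0016433, chromosome 2 from 46524541 to 46613842) had 9214, 7635 and 7374 normalized counts in si-CTRL cells, and 7286, 7149 and 7470 in si-NEK2 cells. The groups overlapped, and si-CTRL replicate 1 was the one library above the rest. The log2 fold change was -0.14 (SE 0.09, adjusted p = 0.241 in limma), and -0.04 without that library (adjusted p = 0.513). Per kilobase, HIF1A was 8.36, 8.49 and 8.71 times EPAS1 in si-CTRL replicates 1, 2 and 3, and 13.86, 14.97 and 13.99 times EPAS1 in si-NEK2 replicates 1, 2 and 3.

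**Figure D2:**
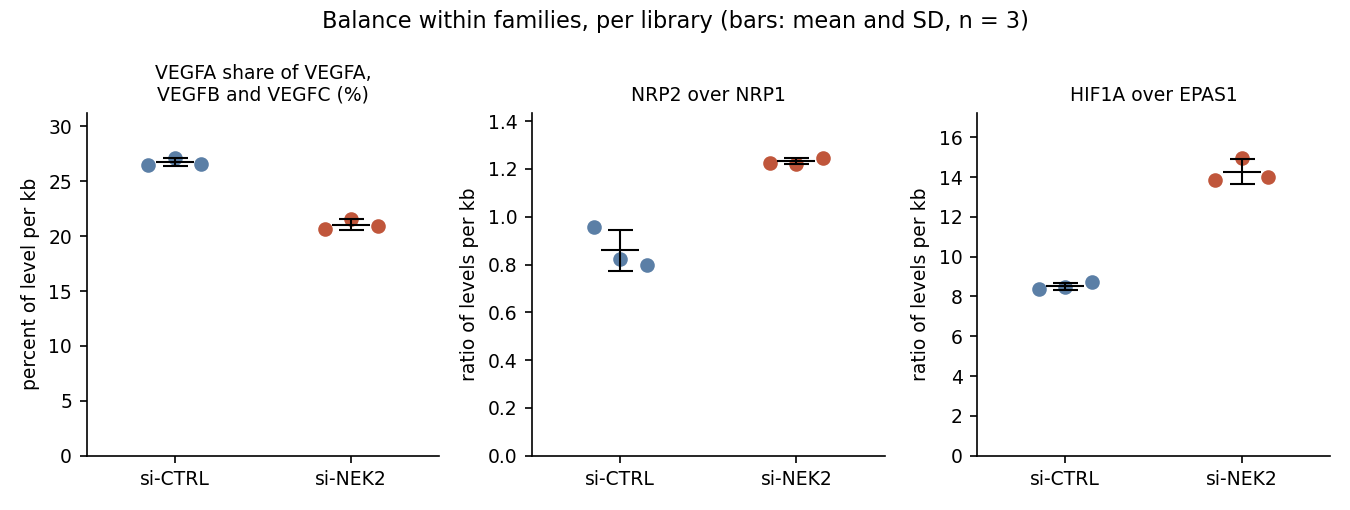
Share of VEGFA in the summed level per kilobase of VEGFA, VEGFB and VEGFC (percent), NRP2 over NRP1 and HIF1A over EPAS1 (ratios of levels per kilobase) in each library, with mean and SD of 3 libraries. The VEGFA share was 26.7% in si-CTRL and 21.1% in si-NEK2 cells, and in no panel did the groups overlap.

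Over the 10 members, the groups did not overlap in 8, of which 5 were lower and 3 higher in si-NEK2 cells. Of all tested genes, 26.9% were lower and 28.2% higher without overlap. The median log2 fold change of the members was -0.32, and that of all tested genes 0.01. Levels per kilobase in si-CTRL cells ran in the order HIF1A (13294), ESM1 (9299), VEGFC (6112), VEGFA (2409), THBS1 (1574), EPAS1 (1563), NRP1 (844), NRP2 (731), VEGFB (501) and ANGPTL4 (227). In this order the libraries of ESM1 and of VEGFC were apart, while those of THBS1 and EPAS1 and those of NRP1 and NRP2 overlapped. In si-NEK2 cells the order was HIF1A (20164), VEGFC (4257), THBS1 (1999), EPAS1 (1413), VEGFA (1224), NRP2 (1068), NRP1 (867), ESM1 (671), VEGFB (334) and ANGPTL4 (79.2), and no 2 neighbours overlapped. In bulk RNA, fewer cells that express a gene and less RNA per cell cannot be told apart.

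**Figure D3:**
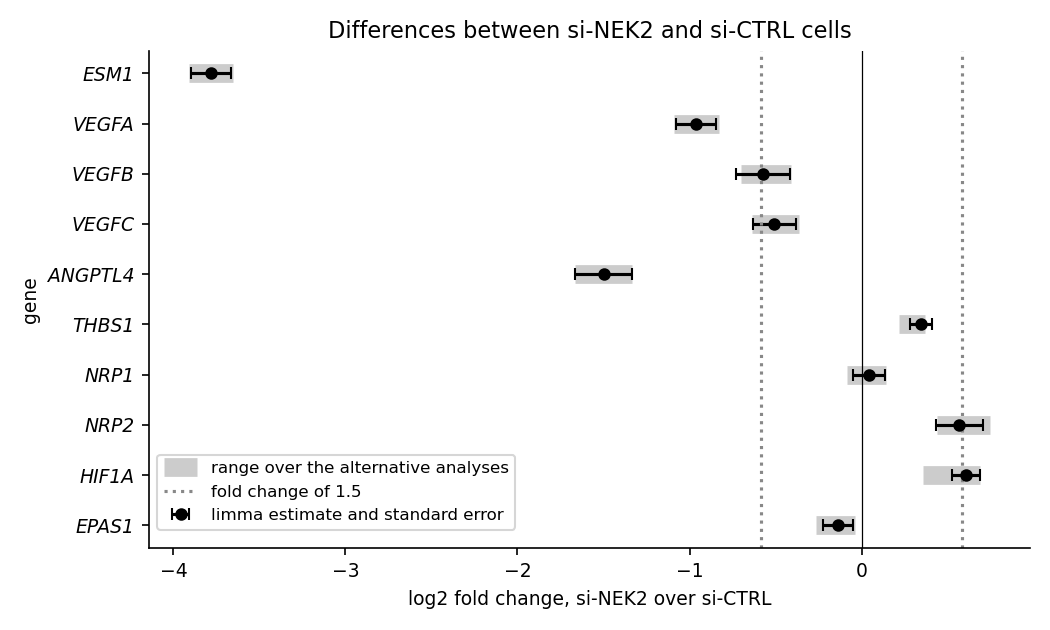
Log2 fold change of si-NEK2 over si-CTRL for each gene, with the limma estimate and its SE (points and bars), the range over 16 alternative analyses (grey) and a fold change of 1.5 (dotted). ESM1 at -3.78, ANGPTL4 at -1.50 and VEGFA at -0.96 stayed beyond the dotted line in the full grey range, while those of VEGFB, VEGFC, NRP2 and HIF1A crossed it.

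The members were then set beside the other genes of their pathways. Among 143 tested genes of 10 lists, members left out, 34 were regulated and lower (23.8%) and 14 were regulated and higher (9.79%), and their median was -0.08 on the log2 scale. Over all tested genes these shares were 14.3% and 8.23%, and several of the lists below lay near them. The values that follow are means of normalized counts over 3 libraries.

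Of the 9 tested VEGF ligands and receptors, 2 fell (22.2%) and 0 rose. VEGFD was tested only in a row shared with PIR, so the reads of that row may not be its own. The count depended on single libraries, with 1 lower and 1 higher without si-CTRL replicate 1, 4 lower without si-CTRL replicate 2, 3 lower without si-CTRL replicate 3, and 3 lower and 1 higher without si-NEK2 replicate 1. It was 4 lower with equal total scaling. Beside VEGFA, FLT1, which encodes VEGF receptor 1, fell from 352 ± 46.3 to 227 ± 19.9 (SD, n = 3), with a log2 fold change of -0.63 (SE 0.13, adjusted p = 0.00463). It was under 1.5-fold without si-CTRL replicate 1 (-0.53) and with quantile scaling (-0.47). KDR, the main signalling receptor of VEGFA, had 0 reads in all 6 libraries, and a count of 0 allows up to 3 reads per library. Of the angiopoietin family only 3 of 13 genes were tested. The orphan receptor gene TIE1 fell from 452 ± 54.3 to 79.5 ± 9.11 (log2 fold change -2.49, SE 0.14, adjusted p = 8.41e-06), beside ANGPTL4, while ANGPTL6, the third, had 16.4 ± 8.57 and 30.8 ± 4.62 normalized counts with overlap between the groups (log2 fold change 0.96, adjusted p = 0.0604). Its call was lost when 1 of the libraries si-CTRL 2 (0.84), si-CTRL 3 (0.72), si-NEK2 1 (0.88) and si-NEK2 2 (0.92) was left out.

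TIE1 is also an endothelial marker, as ESM1 is in normal tissue, so the endothelial list was read as a whole. Of its 13 genes, 7 were tested, 3 were lower (TIE1, ROBO4 and CDH5) and 0 higher. The summed level ranged from 2946 to 3253 normalized counts in si-CTRL libraries and from 1967 to 2552 in si-NEK2 libraries. On this list KDR, TEK and EMCN had 0 reads in every library, and PECAM1 had 13.7 and 9.27 normalized counts on average. TIE1 and ROBO4, by contrast, had 452 and 444 normalized counts on average in si-CTRL cells. The part of the endothelial genes in the ESM1 difference was not tested. ROBO4, a receptor of endothelial guidance, fell from 444 ± 99.3 to 188 ± 16.0 (log2 fold change -1.21, SE 0.17, adjusted p = 0.000586).

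Of 17 tested thrombospondins, related inhibitors of angiogenesis and their receptors, 5 fell and 1 rose, where THBS1 itself counted as neither. THBS2, the paralog of THBS1, fell from 907 ± 57.6 to 240 ± 26.2 (log2 fold change -1.92, SE 0.11, adjusted p = 8.41e-06). The protease gene ADAMTS1, whose product binds VEGFA, fell with a log2 fold change of -1.14 (SE 0.09), and VASH2 with -0.76 (SE 0.18). TIMP3, an inhibitor of metalloproteinases that also blocks VEGF binding to its receptor, rose from 1256 ± 87.4 to 3122 ± 76.0 (log2 fold change 1.31, SE 0.08, adjusted p = 8.41e-06). Its paralog TIMP1 went the other way, from 6147 ± 606 to 4071 ± 143, at the edge of 1.5-fold (log2 fold change -0.59, SE 0.08, adjusted p = 0.000614 in limma). VASH2 is held to promote vessel growth, unlike its paralog VASH1, and the call of VASH2 was lost with quantile scaling. VASH1 fell as well, from 881 ± 21.9 to 539 ± 26.3 (log2 fold change -0.71, SE 0.08, adjusted p = 0.000255 in limma). The list also holds 2 membrane receptors of thrombospondin, CD36 and CD47, of which neither was regulated.

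Among the 12 tested HIF subunits and regulators, 4 rose, the member HIF1A among them, and 1 fell. The number that rose was 2 with equal total scaling and 3 with upper quartile or quantile scaling. It was also 3 without si-CTRL replicate 2 and without si-CTRL replicate 3. ARNT, the partner of HIF-1α, rose from 2983 ± 478 to 4772 ± 230 (log2 fold change 0.69, SE 0.11, adjusted p = 0.0012), and was under 1.5-fold with equal total scaling. Its paralog ARNT2 fell from 820 ± 36.8 to 507 ± 15.8 (log2 fold change -0.69, SE 0.08, adjusted p = 0.000305), in a row shared with a miRNA. EGLN3, an oxygen-sensing hydroxylase that is also a HIF target, rose from 68.5 ± 6.04 to 158 ± 8.54 (log2 fold change 1.20, SE 0.14), and CITED2, which competes with HIF-1α for its coactivators, rose with 0.79 (SE 0.08).

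Of 30 HIF target genes, all tested, 8 fell and 2 rose, although their median log2 fold change was 0.09. Without the 2 members on this list, 6 of 28 fell and 2 rose. The largest decreases were those of MXI1, a repressor of the MYC network (log2 fold change -1.88, SE 0.10), of the mitophagy receptor gene BNIP3L (-1.52, SE 0.07) and of ANGPTL4 at -1.50. DDIT4, an inhibitor of mTORC1, rose beside EGLN3 (log2 fold change 0.87, SE 0.17, adjusted p = 0.00366). A further 10 targets had an adjusted p of at most 0.05 and a positive difference under 1.5-fold, against 1 with a negative one. The share of all tested genes in this range was not counted, so these numbers have no background to be read against. Of the 10, LDHA, which makes lactate, was taken after its values were seen, with 72573 ± 1439 and 108060 ± 4243 normalized counts (log2 fold change 0.57, SE 0.06, adjusted p = 0.000166). With equal total scaling the median of the list turned to -0.04, with 10 lower and 2 higher.

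**Figure D4:**
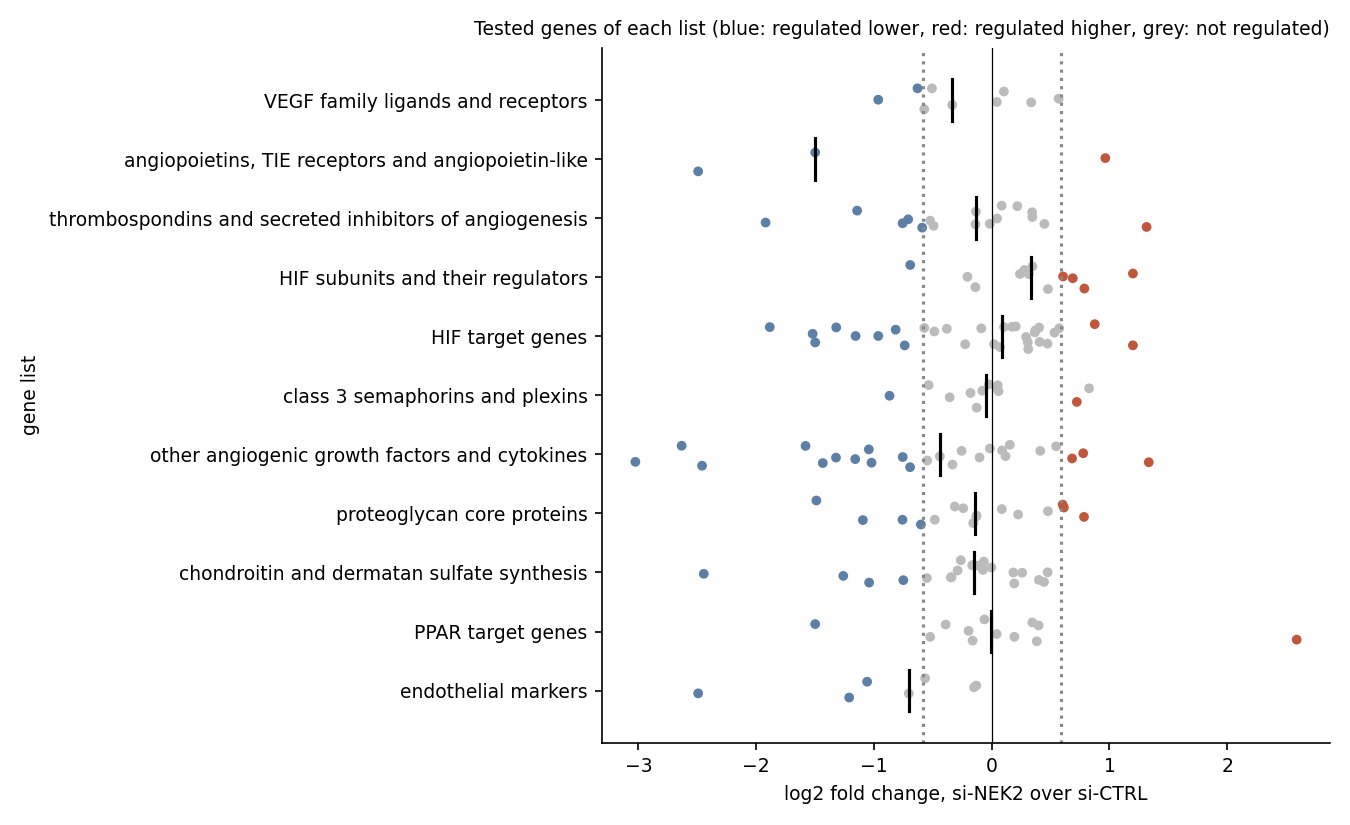
Log2 fold change of si-NEK2 over si-CTRL for the tested genes of 11 lists, one point per gene (blue, regulated lower; red, regulated higher; grey, not regulated), with the median of each list (black line) and a fold change of 1.5 (dotted). Growth factors and cytokines held 11 lower genes of 25, and HIF subunits and regulators 4 higher genes of 12.

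The semaphorins and plexins, which share the neuropilins with the VEGF ligands, held 1 higher and 1 lower gene of 12. The lower gene, PLXNA4, had few reads (33.8 ± 11.5 and 17.4 ± 2.14 normalized counts, log2 fold change -0.87), and its call was lost when 1 of the libraries si-CTRL 2 (-0.63), si-CTRL 3 (-0.85), si-NEK2 1 (-0.83) and si-NEK2 3 (-0.81) was left out. SEMA3A, the ligand of NRP1 that repels growing axons and vessels, rose from 6676 ± 630 to 10996 ± 602 normalized counts (log2 fold change 0.72, SE 0.08, adjusted p = 0.00024).

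Other angiogenic growth factors and cytokines had the most regulated genes, with 11 lower and 3 higher of 25. CSF2, encoding GM-CSF, had a log2 fold change of -3.03 (SE 0.34), HGF, the ligand of MET, -2.63 (SE 0.28) and CXCL8, a chemokine that attracts neutrophils and endothelium, -2.46 (SE 0.10). CXCL8 fell from 16649 ± 2131 to 3013 ± 177 normalized counts. The genes that rose were CXCL12, the ligand of CXCR4 (log2 fold change 1.33, SE 0.13), EDN1, encoding the vasoconstrictor endothelin 1 (0.78, SE 0.14), and PDGFA (0.68, SE 0.09), the last of which was under 1.5-fold with equal total scaling.

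ESM1 is a proteoglycan, and 4 of 16 other tested core proteins fell and 3 rose. CSPG4, or NG2, fell from 8676 ± 695 to 3088 ± 201 (log2 fold change -1.49, SE 0.08, adjusted p = 6.72e-06), and SDC4 and CD44 fell with log2 fold changes of -1.09 (SE 0.10) and -0.76 (SE 0.15). CD44 was not called without si-CTRL replicate 1 (-0.58). TGFBR3 and HSPG2 had log2 fold changes of 0.61 (SE 0.07) and 0.60 (SE 0.14), both at the edge of 1.5-fold. HSPG2 lost its call in 7 of 16 alternatives, which were upper quartile and equal total scaling, edgeR, DESeq2 and the loss of 1 library, either si-CTRL replicate 1 (0.48), si-CTRL replicate 3 (0.57) or the first si-NEK2 library (0.52). TGFBR3 lost it in 4, with each of the 3 scalings and without si-CTRL replicate 3. The number of higher core proteins was 0 with upper quartile and equal total scaling and 1 when 1 of the 3 libraries named for HSPG2 was left out. Of 21 tested genes that build the chondroitin and dermatan sulfate chains, 4 fell (19.05%, against 14.3% of all tested genes) and 0 rose. These included the sulfotransferase genes CHST7 (log2 fold change -1.26, SE 0.20), UST (-1.04, SE 0.13) and CHST11 (-0.75, SE 0.07).

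ANGPTL4 is a target of PPAR receptors as well as of HIF. Of 12 tested PPAR targets, ANGPTL4 was the 1 lower gene, and CREB3L3, a factor of lipid metabolism, was the 1 higher gene, rising from 20.9 ± 2.50 to 131 ± 16.1 normalized counts (log2 fold change 2.59, SE 0.20, adjusted p = 2.99e-05).

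The neighbourhood of ESM1 was examined within 1 Mb of its start, where 55 rows were listed and 14 tested. Of these, 2 fell and 3 rose, numbers too small to set against the shares over all genes, and none came near the size of the ESM1 change. MCIDAS, a regulator of multiciliated cells, fell from 172 ± 15.2 to 76.5 ± 22.9 normalized counts (log2 fold change -1.20, SE 0.23, adjusted p = 0.00328). IL6ST, the shared receptor subunit gp130 of IL6-type cytokines, fell from 25553 ± 2577 to 15227 ± 728 (log2 fold change -0.74, SE 0.08, adjusted p = 0.000196). PLPP1, a lipid phosphatase gene, rose from 1061 ± 24.5 to 2173 ± 7.22 (log2 fold change 1.03, SE 0.07, adjusted p = 1.54e-05), and the pseudogene RNF138P1 and a row without a symbol rose as well, with log2 fold changes of 1.31 (SE 0.25) and 0.70 (SE 0.20). The pseudogene may share reads with its parent gene. It also lies within the coordinates of PLPP1, and the row without a symbol lies within those of SKIV2L2, next to PLPP1. The 3 rises may therefore not be separate observations.

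Most tested genes near ESM1 were not regulated. SNX18, 460 kb to one side, had a log2 fold change of -0.03 (SE 0.07), and GPX8, 182 kb to the other, 0.04 (SE 0.06). CDC20B, 135 kb away, had 16.5 and 7.82 normalized counts on average and a log2 fold change of -1.16 that did not pass (SE 0.52, adjusted p = 0.104). CCNO, DHX29, SKIV2L2, SLC38A9 and IL31RA had log2 fold changes of -0.05, 0.17, -0.13, -0.36 and 0.08 and were not regulated. Nor was a second row without a symbol (GSHG0024794), at 0.47 (SE 0.39).

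**Figure D5:**
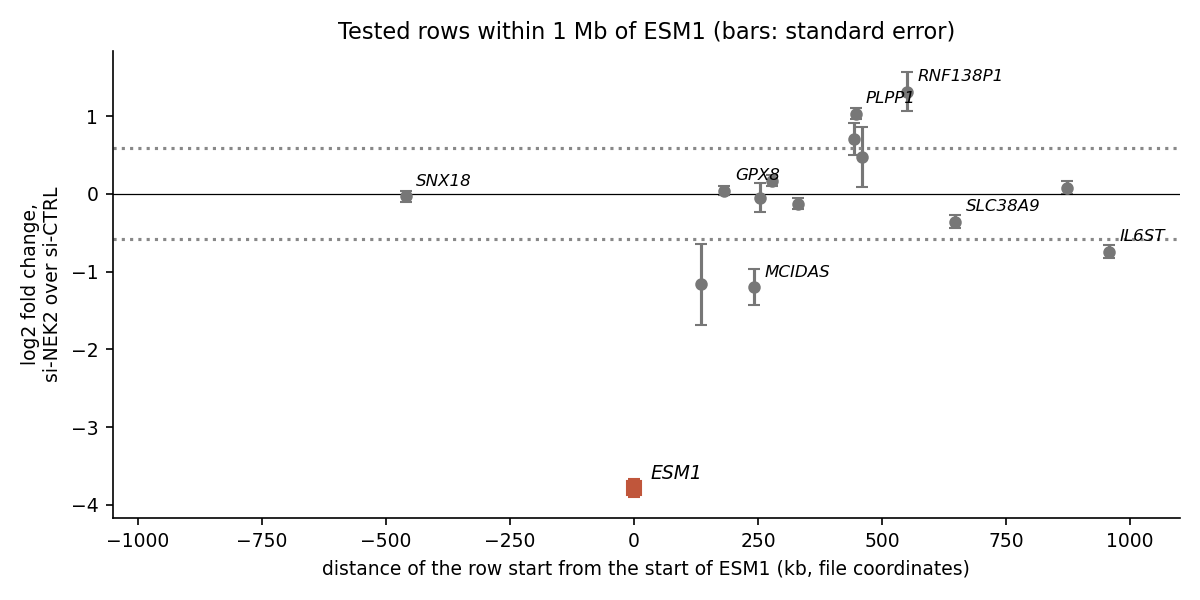
Log2 fold change of si-NEK2 over si-CTRL, with its SE, for the 14 tested rows within 1 Mb of ESM1 (grey) and for ESM1 (red square), by distance from the start of ESM1 in kb. ESM1 at -3.78 lies below all its neighbours, the lowest of which is MCIDAS at -1.20.

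The genes whose profile over the 6 libraries was nearest to that of ESM1 were found by the root mean square difference of log2 values, each centred on its own mean, among 12100 genes with a single symbol and a mean of at least 50 normalized counts. They were IL1B (0.178), KRTAP1-5 (0.181), SERPINB2 (0.241), SLC28A3 (0.285) and NEK2 (0.290). IL1B, the inflammatory cytokine, had 3773, 3031 and 3413 normalized counts in si-CTRL cells and 272, 300 and 303 in si-NEK2 cells. KRTAP1-5, of the keratin-associated family, kept the order of the si-CTRL libraries seen for ESM1, with 147, 111 and 190, and had 11.5, 12.7 and 12.8 in si-NEK2 cells. Family members of KRTAP1-5 are alike in sequence, and its reads are uncertain. SERPINB2, an inhibitor of plasminogen activators, and SLC28A3, a nucleoside transporter gene, went from 3070 ± 859 to 296 ± 16.8 and from 177 ± 25.0 to 17.2 ± 2.58 normalized counts (SD, n = 3). SERPINB2 also kept the si-CTRL order of ESM1, with 2752, 2416 and 4043 in replicates 1, 2 and 3. A measure of likeness over 6 libraries rests mostly on the difference between the groups, and these values are a description.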

How the data were processed

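PolyA-enriched RNA of si-CTRL and si-NEK2 MDA-MB-231 cells was sequenced, with 3 libraries for each group. The signal that the authors deposited for each gene and library is its read number over the size factor from DESeq2, with FAST DB annotation and hg19 coordinates and with replicates not pooled. The submitters' processing notes name STAR 2.4.0, SAMtools, Picard, FastQC and DESeq2. The libraries were made with a stranded kit, but the use of strand in counting is not given in the sources used here. The signal was a whole multiple of 1 read, within 0.01 reads, for 100% of values, which gave back the reads. Depth ran from 52625492 to 87454509 reads, a read stood for 0.818 to 1.25 normalized counts, and a count of 0 allows up to 3 reads, a limit for counting error only.

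Groups came from the sample records. Tested genes had 10 or more normalized counts on average. They were fitted with limma 3.58.1 (R 4.3.3) on log2(value + 1), with an intensity trend. This scale understates changes of genes with few reads. The Benjamini-Hochberg adjustment was made over all tested genes. edgeR 4.0.16 and DESeq2 1.42.0 on the recovered reads were alternatives, beside other pseudocounts, filters, scalings and thresholds, a replicate block and the loss of each library in turn, and the fits were tested on simulated data. The thresholds for regulated genes, p of 0.05 and 1.5-fold, follow the methods of the paper. Levels per kilobase used merged exons of GENCODE v29 basic transcripts. The members and all gene lists were chosen with earlier results of these data known. The text names all members, up to 3 regulated genes per list and direction averaging 50 or more normalized counts, the 5 nearest profiles, tested rows around ESM1, and rows that overlap a member. ANGPTL6, PLXNA4, VASH1, TIMP1, CD36, CD47, LDHA, KDR, VEGFD and the markers CDH5, PECAM1, TEK, EMCN, CDH1, ESR1 and PGR fall outside this rule and were named after their values were seen. Overlapping and neighbouring rows without a symbol are in part summarised.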

Additional observations from a re-analysis of the deposited data

How the results depend on the processing

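Of the 10 members, ESM1, VEGFA, ANGPTL4, THBS1 and EPAS1 kept their direction and call in all 16 alternatives that change the fit. NRP1, which was not called, changed sign with upper quartile scaling (-0.0224), equal total scaling (-0.0847) and quantile scaling (-0.0748), and ranged from -0.019 to 0.141 on the log2 scale when each library was left out, the lowest without si-CTRL replicate 2. At a fold change of at least 2, 1637 genes were regulated in place of 4213, 2 members in place of 4, 25 genes of the wider lists in place of 48 and 3 rows around ESM1 in place of 5. With a pseudocount of 5, 3 of the 5 nearest profiles were retained. Equal total scaling gave 942 higher and 3474 lower genes (21.3% higher against 36.6%) and moved the median of all genes to -0.11, and quantile scaling gave 1827 and 2154 (45.9% higher). edgeR called 4205 genes and DESeq2 4039. With a replicate block, 4084 genes and 4 members were regulated. The deviations of same-numbered libraries correlated across genes at -0.09, 0.05 and -0.15, and those of differently numbered ones at -0.12 to 0.18. These values gave no sign that the numbers pair the samples, but they cannot exclude it. Of the 34 list genes named for the size of their change, 0 changed sign and 9 lost their call under at least 1 alternative. VEGFA and ANGPTL4 were the only members among the 34. HIF1A, NRP1, ANGPTL6 and PLXNA4, whose call or sign also changed, were not among them. For the nearest profiles, dropping the minimum of 50 normalized counts was added after the data were seen, and the other filters, the block and the count tests do not apply to a distance. The cause of these changes was not tested. With 3 libraries per group, no search for single outlying values was made.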
